A study of Mus musculus with 26 samples.

Results

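The dual-specificity phosphatases of the MAPK pathway and the Sprouty and Spred proteins are brakes that signaling through the T cell receptor switches on against itself. Receptor engagement activates Ras, Raf, MEK and ERK, and in parallel the kinases p38 and JNK. The phosphatases remove the phosphates that keep ERK, p38 and JNK active, while Sprouty and Spred proteins act upstream, between the receptor and Raf. Many of these genes are themselves transcribed in response to the kinases they restrain, so their transcripts are commonly read in T cells as a trace of recent or sustained signaling. The 10 genes examined here were taken as a list of names. The rule uses no measured value, but the list was drawn up with earlier results of these data known. They are 6 phosphatases (Dusp1, Dusp2, Dusp4, Dusp5, Dusp6 and Dusp10) and 4 Sprouty or Spred genes (Spry1, Spry2, Spred1 and Spred2), of 35944 genes with a matched transcript, and all 10 passed the filter on low counts.

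The cells were TCRTg101, CD8+ T cells that carry 1 transgenic T cell receptor specific for the C1498 acute leukemia. They come from mice on a Rag2-/- background, so the TCRTg101 of every library are a single T cell clone. All mice were labeled C57BL/6, 6 weeks old and wild type, although the TCRTg101 donors were TCR transgenic. The paper's transfer methods name B6.SJL or C57BL/6 recipients. In the study's transfer design, TCRTg101 stained with CellTrace Violet (CTV, a dye diluted at each division) were given intravenously, C1498 cells followed a day later, and TCRTg101 were sorted at the times given here. There were 3 control libraries from spleen (control 1 and control 2 of naive cells at day 0, control 3 of cells from untreated, leukemia-free mice at day 18) and 1 library of undivided CTVhi cells from spleens of leukemia-bearing mice at day 18. The liver of leukemia-bearing mice gave 2 early libraries (day 7), 3 mid libraries (days 13, 13 and 14) and 2 late libraries (days 18 and 16), and the spleen of such mice gave 2 libraries at day 7 and 1 at day 14. A further naive library was made by oligo-dT priming and enters no comparison. All controls came from spleen, so leukemia and liver residence cannot be told apart in the comparisons of liver with control. Control 1 and control 2 were also naive cells of day 0, so against them the day of sampling differs as well. Whether a library held 1 mouse or several is not given in the sources used here, so p-values measure the spread between these libraries. Values below are scaled CPM, a gene's estimated counts as CPM of its library after TMM scaling (a correction for libraries dominated by a few genes), unless TPM, which also divides by transcript length, is named.

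The 14 low-input libraries held 22918996 to 71358287 estimated counts each, and counts for single members ran from 4 (Spry2 in the undivided library) to 56279 (Dusp1 in control 1). The 8 markers of CD8 T cell identity summed to 4714 to 10255 scaled CPM in every library, and Cd4 stayed at or under 5.35. Several libraries stood apart. Control 1 and control 2 carried RNA of other spleen cells, with macrophage and monocyte markers summing to 972 and 151 and erythroid markers to 5234 and 20348, against 12.7 and 136 in control 3. In the 5 liver mid and late libraries these sums were 12.3 to 55.2 and 5.59 to 215. Hepatocyte markers summed to 3.51 to 403 there and to 1.07 to 319 in control. Of these markers, Alb reached 132 in those liver libraries and 0.0325 in control, whereas Trf reached 63.0 and 319. CD4 T cell markers summed to 2.73 to 7.73 in control and 12.6 to 19.4 in liver mid and late, Cd4 itself being at most 0.986 in the latter. The part of these cells in the results was not tested. The second spleen library of day 7 had the lowest depth but the most genes detected, 30091 against a median of 21970. Liver early 2 was closer to control 3 (r = 0.991 of log2 values over 15465 genes) than to liver early 1 (r = 0.949), whereas liver early 1 was closest to liver mid 2 (r = 0.989), so the early group joined 1 library of each kind. Fewer cells of a type and less RNA per cell cannot be told apart in such bulk samples.

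In GENCODE vM21 (GRCm38) the phosphatase genes lie at chr17:26505590-26562128 (Dusp1), chr2:127336159-127338376 (Dusp2), chr8:34807297-34819894 (Dusp4), chr19:53529109-53542431 (Dusp5), chr10:99263231-99267489 (Dusp6) and chr1:184013302-184075636 (Dusp10). Spry1 lies at chr3:37639947-37644598, Spry2 at chr14:105891947-105896819, Spred1 at chr2:117121374-117182279 and Spred2 at chr11:19924375-20024026. Dusp1 and Spry2 are on the minus strand, and Dusp1, Dusp5, Dusp10 and Spry1 overlap other annotated genes (4 for Dusp1, 1 for each of the others), so their counts carry that uncertainty. Of the 10 genes, 9 had a promoter in the RefSeq table used, Dusp4 being the exception. The promoters of 3 are shown here, each as the 250 bases upstream of the RefSeq start on the gene's own strand in build GRCm38.p6. Spry1 is shown as the member with the highest liver level relative to control, Dusp1 as the one with the deepest fall, and Dusp2 as the steadiest of the abundant members. Capitals mark a match to a motif searched on both strands, and Spry1 held none.
Spry1 (chr3:37639697-37639946, plus strand): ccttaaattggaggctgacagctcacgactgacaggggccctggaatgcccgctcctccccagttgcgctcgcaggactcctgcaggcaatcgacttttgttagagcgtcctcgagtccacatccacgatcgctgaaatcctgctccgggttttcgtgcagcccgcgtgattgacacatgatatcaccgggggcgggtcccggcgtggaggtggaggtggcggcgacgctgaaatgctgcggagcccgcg
Dusp1 (chr17:26508473-26508722, minus strand): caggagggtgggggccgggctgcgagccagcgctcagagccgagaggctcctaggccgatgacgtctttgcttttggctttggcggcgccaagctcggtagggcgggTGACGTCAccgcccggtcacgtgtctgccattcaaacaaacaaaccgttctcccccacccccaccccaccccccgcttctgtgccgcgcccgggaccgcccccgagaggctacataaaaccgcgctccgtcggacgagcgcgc
Dusp2 (chr2:127335909-127336158, plus strand): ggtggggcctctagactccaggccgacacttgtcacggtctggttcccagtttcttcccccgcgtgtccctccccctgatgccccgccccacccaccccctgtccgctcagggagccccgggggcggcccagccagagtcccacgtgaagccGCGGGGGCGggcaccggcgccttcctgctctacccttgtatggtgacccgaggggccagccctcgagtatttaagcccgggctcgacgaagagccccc
The cAMP response element TGACGTCA, the palindrome bound by CREB-family factors, lay 143 to 136 bases upstream of the Dusp1 start and in no other member, and 1.55% of the 32851 promoters of the table held it in the same window. Dusp5 held a pair of adjoining CArG boxes, the element of serum response factor, at 82 to 73 and 72 to 63 bases upstream, an element present in 1.47% of promoters. The EGR motif GCGNGGGCG lay 98 to 90 bases upstream of Dusp2 (4.7% of promoters), and the AP-1 motif TGANTCA (6.75%) and the ETS motif CCGGAAG (6.91%) occurred in none of the 9. The 9 windows were 56.0% to 70.8% G and C, above the median of 52.4% over the table.

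Liver TCRTg101 at mid and late time points carried a different set of these transcripts from control cells. Spry1, Spry2, Dusp4, Dusp6 and Spred1 rose, Dusp1 and Dusp10 fell, and Dusp2, Dusp5 and Spred2 did not pass the test. In the joint comparison, which set the 3 controls against the 5 liver libraries of these times, 7 of the 10 members passed edgeR's quasi-likelihood test (p adjusted by Benjamini-Hochberg over 14616 genes). Calls were common among all genes in that comparison, at 47.3%, of which 23.5% of genes rose and 23.8% fell, and the 5 rises and 2 falls of the members are read against those shares. The median absolute log2 change was 1.62 over the members and 0.69 over all genes tested.

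**Figure D1:**
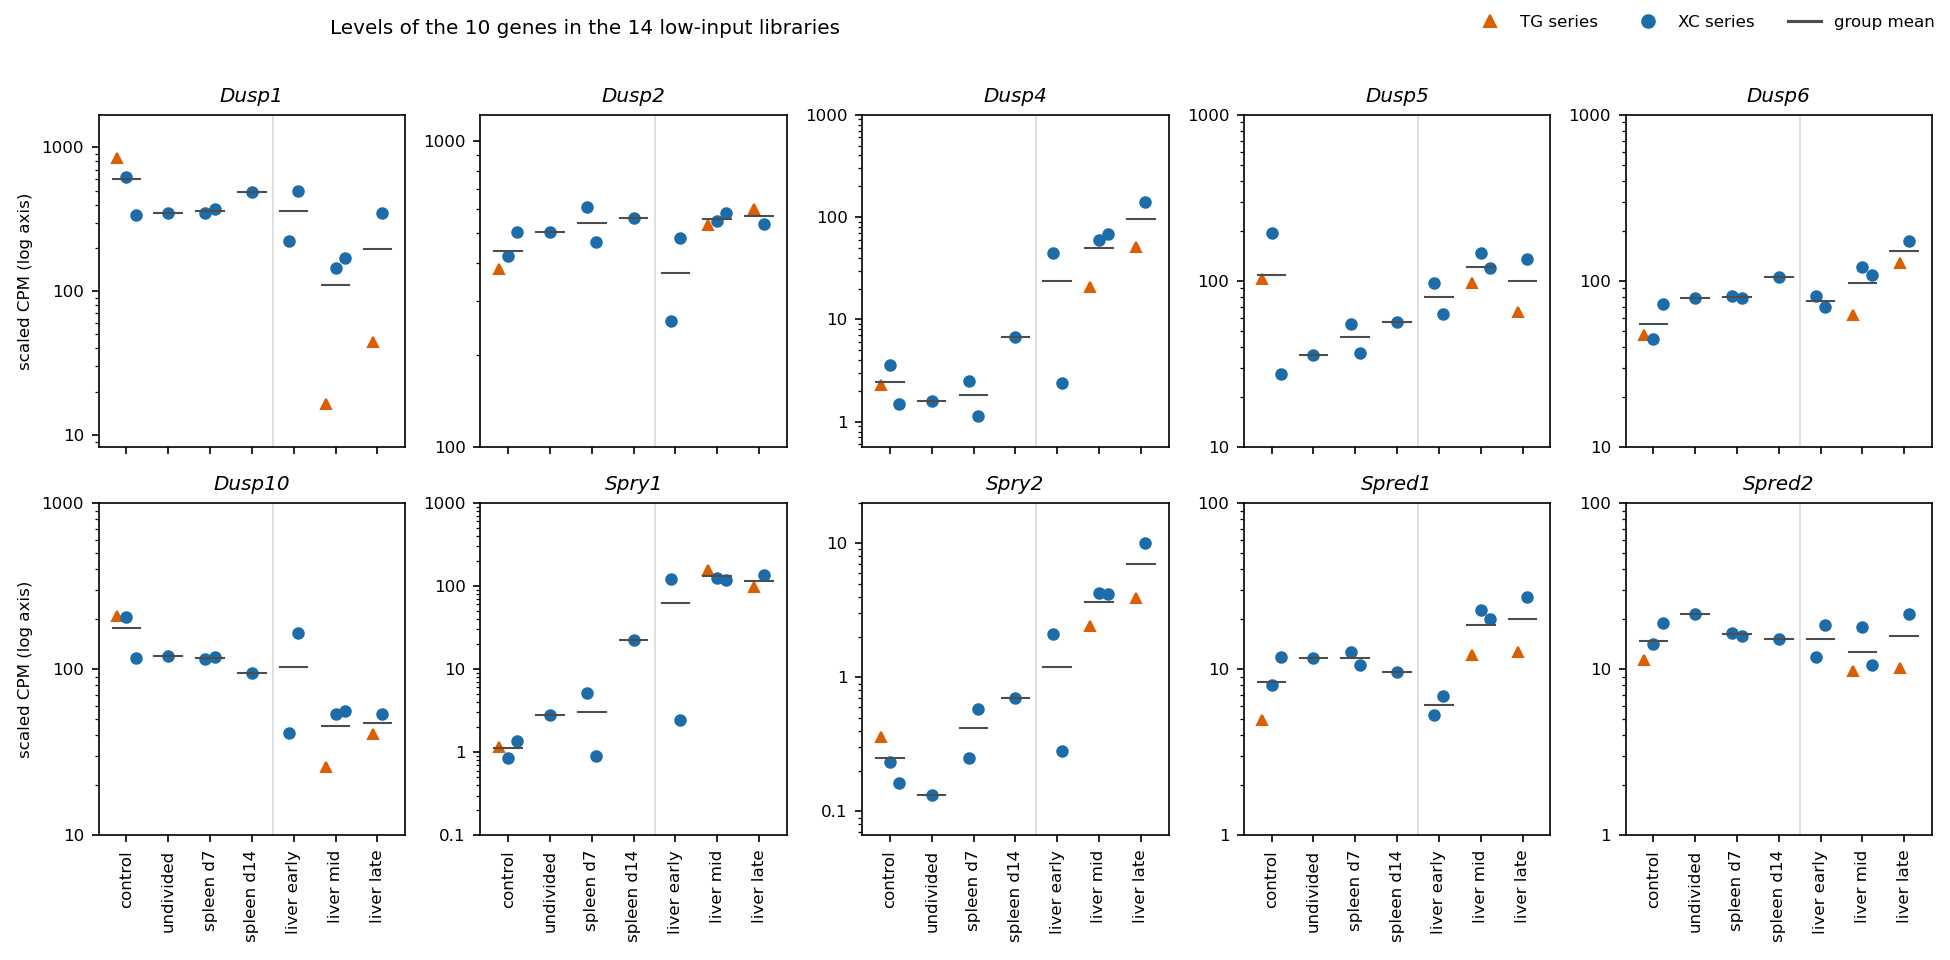
Scaled CPM (log axis) of each of the 10 genes in the 14 low-input libraries by group, with a bar at the group mean, triangles for the TG series and circles for the XC series. Spry1, Spry2 and Dusp4 lie in separate ranges in control and in liver mid and late, while 1 of the 2 liver early libraries lies within the control range for Spry2 and Dusp4 and above it, at 2.41, for Spry1.

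Sprouty proteins inhibit the Ras and ERK branch downstream of receptor kinases and of the T cell receptor. Spry1 stood at 1.15, 0.84 and 1.36 scaled CPM in the 3 controls and at 156, 124 and 118 in liver mid and 97 and 134 in liver late. No control approached any of the 5 liver libraries, and the mid and late libraries overlapped each other. The joint log2 change was 6.78 ± 1.28 (SE, edgeR adjusted p = 0.0078), a 110-fold difference, and it was 6.88 ± 1.31 at mid (adjusted p = 0.022) and 6.68 ± 1.33 at late (adjusted p = 0.014). Within the TG series the means of liver and control differed 110-fold, and within the XC series 114-fold.

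Spry1 also separated the remaining spleen libraries. It was 2.78 in undivided cells, 5.21 and 0.909 in the 2 spleen libraries of day 7 and 22.1 in spleen at day 14. The day 14 spleen library was thus above every other spleen library and below every liver mid and late library. In liver at day 7, Spry1 was 123 in liver early 1, inside the mid and late range, and 2.41 in liver early 2.

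Spry2, the other Sprouty gene among the members, was scarce. It reached 0.359, 0.234 and 0.162 in the controls, on 24, 12 and 5 counts, and 2.4, 4.28, 4.20, 3.94 and 10.0 in the 5 liver mid and late libraries, on 115 to 353 counts. The groups did not overlap, and the library at day 16 was the highest. The log2 change was 4.16 ± 0.75 (adjusted p = 0.0066), with 3.67 ± 0.76 at mid (adjusted p = 0.022) and 4.64 ± 0.81 at late (adjusted p = 0.01). Without control 1 these were 4.94, 4.43 and 5.44, and at late the change was 5.23 without liver late 1 and 3.95 without liver late 2. Per transcript length, Spry2 had the lowest mean of the members in the liver, at 2.00 ± 1.40 TPM (SD, n = 5) against 42.7 ± 12.5 TPM for Spry1.

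Spred1 and Spred2 encode membrane-bound relatives of Sprouty that bring neurofibromin, a Ras GTPase activating protein, to Ras. Spred1 was 4.97, 8.07 and 11.9 in the controls and 12.2, 22.8, 20, 12.7 and 27.2 in liver mid and late, with a log2 change of 1.26 ± 0.22 (adjusted p = 0.0064). The lowest liver library lay just above the highest control on this scale, but not in plain CPM, with liver late 1 at 9.16 and control 3 at 13.1. Within series the gap was clearer, because both TG liver libraries (12.2 and 12.7) stood against the TG control at 4.97. Control 3, the undivided library and the leukemia spleen libraries, all XC, held 9.64 to 12.6 scaled CPM, near those TG liver values. Spred1 passed at mid (1.15 ± 0.24, adjusted p = 0.022) and at late (1.37 ± 0.26, adjusted p = 0.011).

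Unlike the Sprouty genes, Spred1 was low in both liver libraries of day 7, at 5.32 and 6.89, below both spleen libraries of that day at 12.6 and 10.6. The difference was -0.93 ± 0.28 on the log2 scale and did not pass adjustment (adjusted p = 0.54, unadjusted p = 0.0077). At days 13 to 14 the order was the opposite, with liver mid 1.20 ± 0.35 above the day 14 spleen library (adjusted p = 0.71). The test of the change in that liver to spleen difference gave 2.13 ± 0.45 with an unadjusted p of 0.00074 and an adjusted p of 1 in edgeR, while DESeq2 called it. Spred2 differed little between groups, at 11.3, 14.1 and 18.9 in the controls and 9.72 to 21.6 in liver mid and late, with a log2 change of -0.05 ± 0.26 (adjusted p = 0.88).

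Dusp4 and Dusp6 are phosphatases that act on ERK, the former in the nucleus and the latter in the cytoplasm. Dusp4 was 2.28, 3.57 and 1.49 in the controls and 20.9, 59.1, 68.8, 50.7 and 139 in liver mid and late. Every liver library exceeded every control, and the log2 change was 4.65 ± 0.99 (adjusted p = 0.01), with 4.11 ± 1.0 at mid (adjusted p = 0.026) and 5.2 ± 1.07 at late (adjusted p = 0.015). Both TG liver libraries (20.9 and 50.7) were below the 3 XC liver libraries (59.1 to 139). Elsewhere Dusp4 was low outside liver early 1, with 1.59 in undivided cells, 2.49 and 1.13 in spleen at day 7, 6.74 in spleen at day 14, 45.0 in liver early 1 and 2.38 in liver early 2.

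Dusp6 moved less, but with little scatter. It was 47.2, 44.9 and 72.9 in the controls and 62.6, 122, 108, 128 and 173 in liver mid and late, a log2 change of 1.14 ± 0.21 (adjusted p = 0.0066). The ranges overlapped through liver mid 1 and control 3, which belong to different series, and did not overlap within either series. The change was 0.77 ± 0.22 at mid (adjusted p = 0.034) and 1.51 ± 0.24 at late (adjusted p = 0.0092). Both late libraries lay above all 3 mid libraries, yet the late to mid difference of 0.74 ± 0.25 had an adjusted p of 0.91 (unadjusted p = 0.015). Dusp6 was also at 69.5 to 106 in the undivided library, the leukemia spleen libraries and both liver early libraries, and with control 3 at 72.9 the day 0 controls were the lowest of the 14.

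Dusp1 and Dusp10 act mainly on p38 and JNK, and Dusp1 is also an immediate-early gene. Dusp1 was 843, 627 and 341 in the controls and 16.5, 146, 171, 44.3 and 349 in liver mid and late. It fell by 2.71 ± 0.86 on the log2 scale (adjusted p = 0.036), a 6.54-fold difference in the fit, and liver late 2 overlapped control 3. The depth of the fall differed between series, with control means 27.7-fold above liver in TG and 2.18-fold above in XC, where the ranges overlapped. It passed at mid (-3.19 ± 1.01, adjusted p = 0.048) and not at late (-2.23 ± 1.08, adjusted p = 0.14). At mid it was -1.67 without control 1, -3.89 without control 2, -4.10 without control 3 and -2.23 without liver mid 1. The joint change was -3.37 without control 2, -3.57 without control 3, -1.97 without liver late 1 and -2.04 without liver mid 1. Without control 1 it was -1.04, and with control 3 as the only control it was -0.56, neither called.

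Dusp10 fell more evenly. It was 208, 207 and 117 in the controls and 25.6, 53.9, 56.0, 40.8 and 53.8 in liver mid and late, with no overlap. The log2 change was -1.99 ± 0.46 (adjusted p = 0.012), a 3.96-fold fall, with -2.06 ± 0.54 at mid (adjusted p = 0.029) and -1.91 ± 0.62 at late (adjusted p = 0.043). Spleen libraries of leukemia-bearing mice held 115, 118 and 95 and the undivided library 120, all near control 3 and above every mid and late library. Liver early 1 was at 41.0, inside the mid and late range, and liver early 2 at 164.

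Dusp2 and Dusp5 are nuclear phosphatases, Dusp5 with a preference for ERK. Dusp2 was the steadiest abundant member, at 382, 423 and 504 in the controls and 533 to 603 in liver mid and late, with a log2 change of 0.36 ± 0.22 (adjusted p = 0.21). The 5 liver libraries lay above the 3 controls on this scale but overlapped them without scaling factors. Its lowest library of all was liver early 1, at 259. Dusp5 averaged 108 ± 82.6 in control (SD, n = 3) and 113 ± 32.7 in liver mid and late (SD, n = 5), a log2 change of 0.00 ± 0.56 (adjusted p = 1). That mean rested on unlike controls at 103, 193 and 27.6. The change was -0.50 with the day 0 controls alone and 2.20 with the day 18 control alone, neither called.

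**Figure D2:**
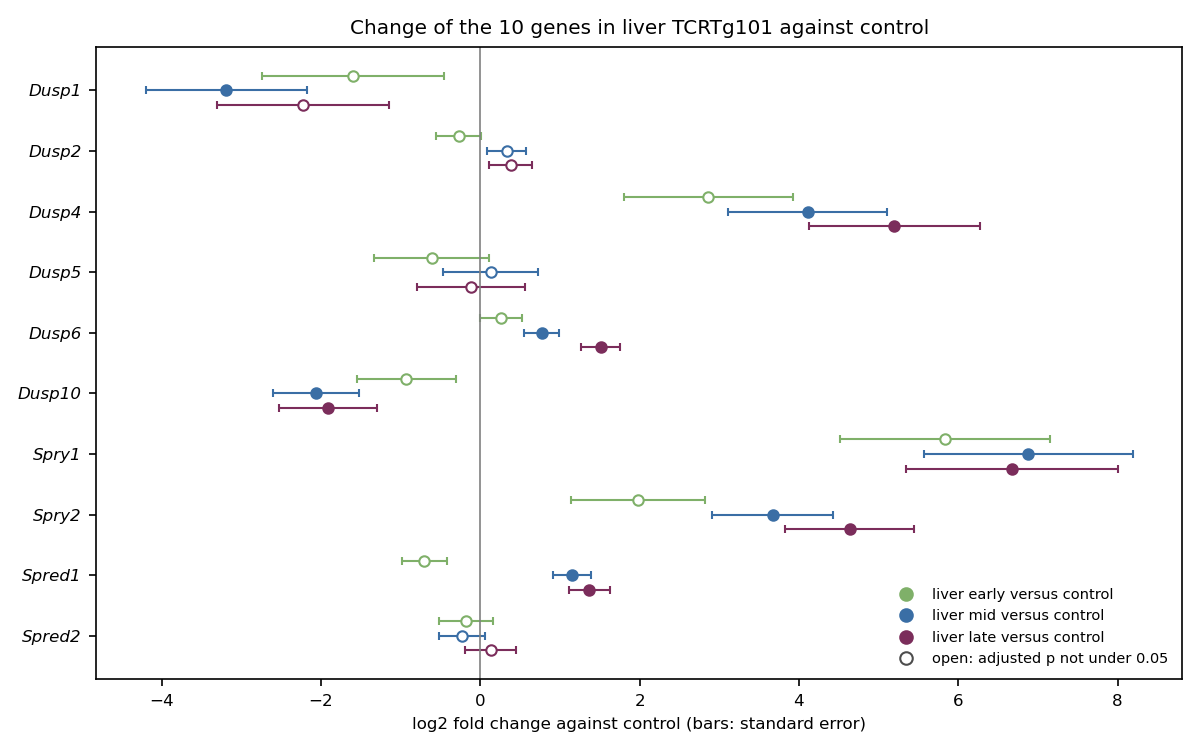
Log2 fold change of each gene against control in liver early, mid and late (points, with standard error bars), filled where the adjusted p is under 0.05. Spry1, Spry2, Dusp4, Dusp6, Spred1 and Dusp10 are filled at both mid and late, Dusp1 at mid alone, and no point is filled at early.

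By time point, 7 members passed at liver mid, where 31.3% of all genes did, and 6 at liver late, where 37.5% did, Dusp1 being the one not called at late. By non-overlap of the 5 liver libraries and the 3 controls, 6 members were separate (Dusp2, Dusp4, Spry1, Spry2 and Spred1 above, Dusp10 below), where 37.7% of all tested genes were. In plain CPM, 5 were separate: Dusp4, Spry1 and Spry2 above, Dusp1 and Dusp10 below, where 39.5% of all tested genes were. Without scaling factors the median log2 change of all genes moved by -0.24. The 7 calls of the joint comparison and their directions were then the same, while Dusp6 lost its call at mid (0.56, adjusted p = 0.1).

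The calls leaned on single libraries, those of all genes as well as those of members. At mid no member was called without control 1, control 2, liver mid 1 or liver mid 3, and 3 were called without liver mid 2. Of all genes, the fits with no member called had 1 of 14183, 1 of 14274, 0 of 14210 and 0 of 14403, in that order. The fit without liver mid 2 had 3157 of 14426. At late none was called without control 1, liver late 1 or liver late 2. Leaving out control 1 left 149 of 14183 genes called at late. In the joint comparison it ended the calls of all 7 members and left 6 genes called in the whole table, although every one of the 7 log2 changes kept its direction. The Dusp1 call was also lost without control 2, liver late 1 or any of the mid libraries, and the Dusp10 call without liver late 1. Control 1 is 1 of the 2 controls with macrophage and erythroid RNA, and the only TG control. With control 3, whose sums were the lowest of the 3 for both marker lists, as the only control, no member was called, and the log2 changes were 6.45 for Spry1, 5.94 for Dusp4, 5.22 for Spry2, 0.95 for Spred1, 0.94 for Dusp6 and -1.09 for Dusp10.

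At day 7, no gene of 14616 passed in liver early against control (0%) in edgeR, with 1496 genes and 4 members at an unadjusted p under 0.05, and DESeq2 called 351 genes including Spry1. The largest member changes were 5.83 ± 1.32 for Spry1 (adjusted p = 0.45) and 2.86 ± 1.06 for Dusp4 (adjusted p = 0.47). This followed the split between the 2 libraries. Liver early 1 stood at mid and late levels for Spry1, Dusp4 and Dusp10, and at 2.09 for Spry2 it was just under the lowest mid library. Liver early 2 stood inside the control range for Dusp4, Dusp10 and Spry2 and above it for Spry1. Without liver early 2, 4 members passed (Spry1, Spry2 and Dusp4 higher, Dusp10 lower) among 1903 genes, and without liver early 1 the Dusp4 change was -0.47. Liver early 1 was outside the mid and late range for Spred1, at 5.32 within the control range, and for Dusp2, at 259 below both ranges.

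**Figure D3:**
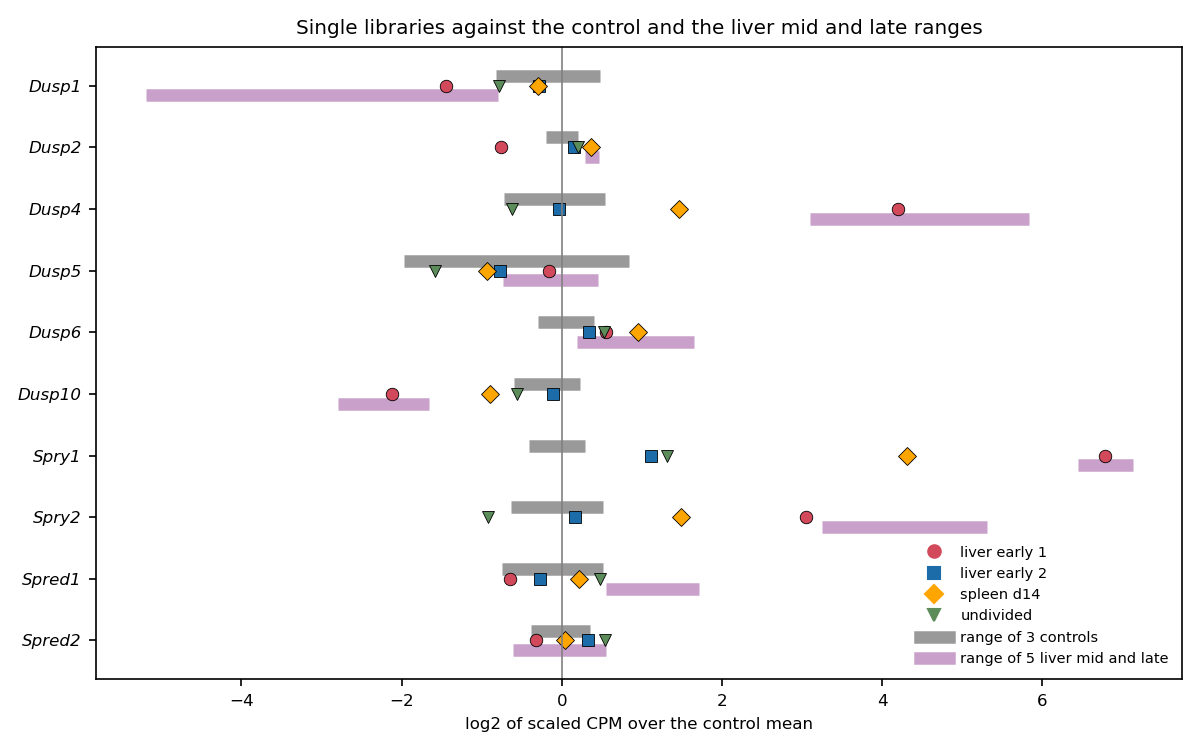
Log2 of scaled CPM over the control mean for 4 single libraries (symbols), with the range of the 3 controls in gray and of the 5 liver mid and late libraries in purple. Liver early 1 falls in or beside the purple range for Spry1, Spry2, Dusp4 and Dusp10 and outside it for Spred1 and Dusp2, whereas liver early 2 and undivided cells lie in or near the gray range except for Spry1, where both lie above it.

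Undivided cells came from leukemia-bearing hosts but had not diluted the dye, and a single library of them was compared with control. Its Spry1 level of 2.78 lay above all 3 controls. No gene of 14616 (0%) passed against control in edgeR or DESeq2, and 183 genes and no member reached an unadjusted p under 0.05, which with 1 library does not show that the cells were alike. Against the same undivided library, liver late was higher by 5.81 ± 1.45 for Spry2 (adjusted p = 0.1) and 1.17 ± 0.36 for Dusp6 (adjusted p = 0.12). None of the 14616 genes passed (0%) in edgeR, where 3787 genes and 5 members had an unadjusted p under 0.05, and DESeq2 called 1891 genes and 5 members (Dusp4, Dusp6, Spry1, Spry2 and Spred1, all higher in liver). Between liver late and liver mid none passed either (0%), with 783 genes and 1 member, Dusp6, at an unadjusted p under 0.05 and 32 genes but no member called by DESeq2.

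The day 7 and day 14 spleen libraries of leukemia-bearing mice were compared in a fit of all 14 libraries. Spleen at day 7 against control gave no call among 15465 genes (0%) in edgeR, with 972 genes and no member at an unadjusted p under 0.05 and 14 genes but no member called by DESeq2. Liver early against spleen at day 7 also gave none (0%), with 1395 genes and 3 members at an unadjusted p under 0.05 and 61 genes but no member called by DESeq2. The Spry1 difference there was 4.34 ± 1.5 (adjusted p = 0.54), carried by liver early 1. Liver mid against the single day 14 spleen library gave 1 gene of 15465 (0.00647%), not a member, and so did the change of the liver to spleen difference from day 7 to days 13 to 14 (0.00647%). DESeq2 called 17 genes and no member in the former, and 2 genes, of which 1 was Spred1, in the latter.

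Dusp1, Dusp5 and Dusp10 were higher in the day 0 controls than in the other spleen libraries, and Dusp2, Dusp6, Spred1 and Spred2 were lower. Dusp1 was 843 and 627 at day 0 and 341 to 492 in the 5 others (control 3, undivided and the 3 leukemia spleen libraries). Dusp10 was 208 and 207 at day 0 and 95 to 120 in those 5, and Dusp5 was 103 and 193 against 27.6 to 56.7. In the other direction, Dusp2 was 382 and 423 at day 0 and 468 to 611 in those 5, and Dusp6 44.9 and 47.2 against 72.9 to 106. Spred1 was 4.97 and 8.07 against 9.64 to 12.6, and Spred2 11.3 and 14.1 against 15.2 to 21.5. The ranges did not overlap for any of these genes, but did for Dusp4, Spry1 and Spry2. The share of all genes split this way was not computed, so the split cannot be called particular to the members. No comparison of the design tests it. The macrophage and erythroid sums of the day 0 controls, given above, moved with the split. So did the day of sampling and, for control 1 alone, the TG series. The part of each in the split was not tested.

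Per transcript length, Dusp2 and Dusp1 were the most abundant members in control, at 311 ± 102 and 306 ± 86.3 TPM (SD, n = 3), followed by Dusp10 at 74.5 ± 22.4, Dusp5 at 44.3 ± 36.2 and Dusp6 at 23.0 ± 10.1. The neighbors Dusp2 and Dusp1, Dusp10 and Dusp5, and Dusp5 and Dusp6 overlapped in spread between libraries, though Dusp10 was above Dusp5 in each control. Spred2 (4.97 ± 2.45), Spred1 (1.51 ± 0.772), Dusp4 (0.903 ± 0.407), Spry1 (0.448 ± 0.149) and Spry2 (0.111 ± 0.0278) made up the lower end. Spred1 and Dusp4, and Dusp4 and Spry1, also overlapped in spread, though Dusp4 was above Spry1 in each control. In liver mid and late Dusp2 led at 324 ± 89.1 TPM (SD, n = 5), followed by Dusp1 at 71.4 ± 66.9. Spry1 (42.7 ± 12.5), Dusp5 (42.3 ± 20.8), Dusp6 (38.8 ± 16.5), Dusp4 (22.7 ± 17.3) and Dusp10 (14.7 ± 6.83) came next. Each neighbor in this run, Dusp1 and Spry1 included, overlapped the next in spread between libraries. Within libraries, Dusp6 was above Dusp4 in all 5, while the order of the other neighbors varied. Spred2 (3.53 ± 2.26), Spred1 (2.75 ± 1.24) and Spry2 (2.00 ± 1.40) were last and overlapped in spread, though Spred2 was above Spry2 in all 5 libraries. In the order of means Spry1 stood above Spry2 alone in control, and below Dusp2 and Dusp1 alone in the liver.

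Most members were read through 1 transcript. Dusp4, Dusp5 and Spry2 had 1 annotated transcript, and the leading transcripts of Dusp2, Dusp6, Dusp10 and Spred1 (each numbered 201) held 87.8% to 100% of counts in the low-input libraries, Dusp10-202 reaching 10.4% in 1 control and Dusp6-204 20.7% in the oligo-dT library alone. Dusp1 was mostly Dusp1-202 (65.4% to 87.0%), with 6.1% to 25.9% assigned to Dusp1-203, a retained-intron form, in overlapping ranges in control and in liver mid and late. The oligo-dT library assigned 74.7% of Dusp1 to Dusp1-206, which held at most 8.57% elsewhere. The Dusp1 gene model (chr17:26505590-26562128, minus strand) overlaps Ergic1 through transcripts that held 0.0194% to 2.8% of its counts. Spry1 (chr3:37639947-37644598, plus strand) was mostly Spry1-201 in the mid and late libraries (64.4% to 83.6%), with 15.7% to 28.0% in Spry1-203. Over all low-input libraries Spry1-202 reached 34.6% and Spry1-203 66.1%, in libraries of 25 and 77 Spry1 counts. The division of Spred2 followed the series, Spred2-202 holding 83.0% to 99.6% in TG and 31.6% to 51.1% in XC, with Spred2-201 holding most of the rest.

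Across the 14 libraries, after removal of the series effect, the members formed opposed groups. Pearson's r of log2 CPM was 0.96 between Dusp4 and Spry2, 0.93 between Dusp4 and Spry1 and 0.89 between Spry1 and Spry2, and Dusp1 and Dusp10 were at 0.88. Dusp10 and Spry1 were the most opposed pair, at -0.92, and 26 of the 45 pairs were above 0. These values describe libraries that share groups and series, and 5 of the 14 are the mid and late ones. The genes most like Spry1 were Il2ra, the high-affinity IL-2 receptor chain (r = 0.991), Irf4, a transcription factor induced by the T cell receptor (0.99), and Rcc1 (0.989). Dusp4 was closest to Ptprs, Nsmf and Myo1c (0.988 to 0.992) and Spry2 to Pex11a, Spp1 and Gstt3 (0.986 to 0.989). Dusp6 was closest to Pomk, Orai3 and Tox (0.937 to 0.953), Tox being a transcription factor of exhausted T cells, and Spred1 to Mogs, Zfp91 and Fancf (0.911 to 0.942).

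Among the others, Dusp10 lay nearest to Ulk2, Stk4 and Gpd1l (0.976 to 0.981) and Dusp1 to Snx13, Ppp1r15a and Gadd45a (0.936 to 0.947), the last a stress gene that feeds p38 and JNK. Dusp2 lay nearest to Phc2, Nab1 and Clstn1 (0.913 to 0.935), and Dusp5 to Cd24a, Elk1 and Csf2ra (0.905 to 0.918), Elk1 being a nuclear target of ERK. Spred2 had the loosest neighbors, Hyi, Unc5a and Gm6035 (0.816 to 0.908).

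The rest of the pathway was read from lists of names, in the joint comparison of liver mid and late with control. Of the 4 other MAPK phosphatases, all tested, Dusp16 rose (0.71 ± 0.25, adjusted p = 0.04) and Dusp8 fell (-2.70 ± 0.75, adjusted p = 0.019), although the lowest Dusp8 control, 0.195, lay beside the liver range of 0.196 to 0.435 and the highest was 3.57. Of the 3 other Sprouty and Spred genes only Spry4 was tested, and it rose by 2.06 ± 0.74 (adjusted p = 0.048), with controls at 0.176 to 0.809 and liver at 0.292 to 7.52. Of 15 atypical dual-specificity phosphatases, smaller enzymes that lack the MAPK-docking domain, 10 were tested, 3 rose and 1 fell. The share called was 50.0% for the other MAPK phosphatases and 40.0% for the atypical ones, against 47.3% of all genes. Dusp14 went from 0.0325 to 0.329 in control to 5.19 to 29.2 in liver (adjusted p = 0.0064), Dusp22 rose by 1.13 ± 0.23 (adjusted p = 0.0079), and Dusp28 fell by 0.77 on the log2 scale (adjusted p = 0.025).

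Of 16 genes of the Ras and ERK cascade, 5 rose and 5 fell (median log2 change 0.14 over the list, against -0.05 over all genes), where 47.3% of all genes were called. At mid alone 1 rose and 2 fell, or 18.8% of the list against 31.3% of all genes. At late alone 3 rose and 4 fell, or 43.8% against 37.5%. Ksr1, a scaffold that holds Raf, MEK and ERK together, rose 3.78-fold (adjusted p = 0.0081) and Hras 1.60-fold (adjusted p = 0.018), while the Ras exchange factors Rasgrp1 and Sos1 fell 2.34-fold (adjusted p = 0.0064) and 2.29-fold (adjusted p = 0.018). Of 10 Ras GTPase activating proteins, 9 were tested, 1 rose (Dab2ip, adjusted p = 0.027) and 3 fell, with Rasa4 at -1.26 ± 0.24 (adjusted p = 0.0071) and Rasal3 at -0.91 ± 0.27 (adjusted p = 0.023), and the list's median was -0.42. The 44.4% called was near the share over all genes. Of 17 genes of the p38 and JNK cascade, 15 were tested, and 3 rose and 3 fell (median 0.05), a share of 40.0% that was likewise not above that of all genes. Jointly, Mapk11, the beta form of p38, rose 3.88-fold (adjusted p = 0.0059) and its activating kinase Map2k3 3.14-fold (adjusted p = 0.028). Gadd45a fell 2.89-fold (adjusted p = 0.02) and Mapk8, which encodes JNK1, 1.95-fold (adjusted p = 0.013).

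Of 7 genes that report the output of ERK, 6 were tested, 4 rose and 1 fell in the joint comparison, where 23.5% of all genes rose, and the median was 1.71. Spry4, described above, is 1 of the 4 and is counted in both lists. At mid alone 2 rose, 1 fell and 3 were not called. Etv4 and Etv5 are ETS factors known as ERK targets. Etv4 was at 0 to 0.0974 in the controls and 2.39 to 8.61 in liver mid and late (adjusted p = 0.0062), and Etv5 rose by 2.31 ± 0.39 (adjusted p = 0.0063), from 2.85 to 4.28 in control to 6.47 to 58.8 in liver. Ccnd1, the cyclin that drives entry into the cycle, fell by 3.27 on the log2 scale (adjusted p = 0.0066), from a level that was 4.54 in the highest control and 0.454 in the lowest, inside the liver range of 0.109 to 0.654.

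Immediate-early genes, which are transcribed within minutes of a stimulus without new protein, split. At mid alone 6 of 13 rose and 2 fell, or 61.5% against 31.3% of all genes. At late alone 2 rose and 1 fell, or 23.1% against 37.5%. In the joint comparison 4 rose and 4 fell, or 61.5% against 47.3%, with a median of 0.88. Egr2 rose by 3.13 ± 0.86 (adjusted p = 0.022) and Egr3 by 2.54 ± 0.77 (adjusted p = 0.031), both ERK and calcium-responsive genes, while Fos fell by 3.92 (adjusted p = 0.012) and Fosb by 2.08 (adjusted p = 0.024) on the log2 scale. Of 13 genes known to respond to tissue dissociation and sorting, several of them also immediate-early, 1 rose (Egr1, 1.38 ± 0.45, adjusted p = 0.037) and 6 fell, led by Fos and by Jun (-3.15 ± 0.75, adjusted p = 0.014), with a median of -1.25. That was 53.8% of the list, against 47.3% of all genes. The summed level of the list was 4803 to 6681 in control and 1467 to 4576 in liver mid and late. Its lowest values, 1467 and 1664, were in liver mid 1 and liver late 1, the libraries where Dusp1 was lowest. The sum was 6442 and 12794 in the liver early libraries. The part of tissue handling in the Dusp1 difference was not tested.

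**Figure D4:**
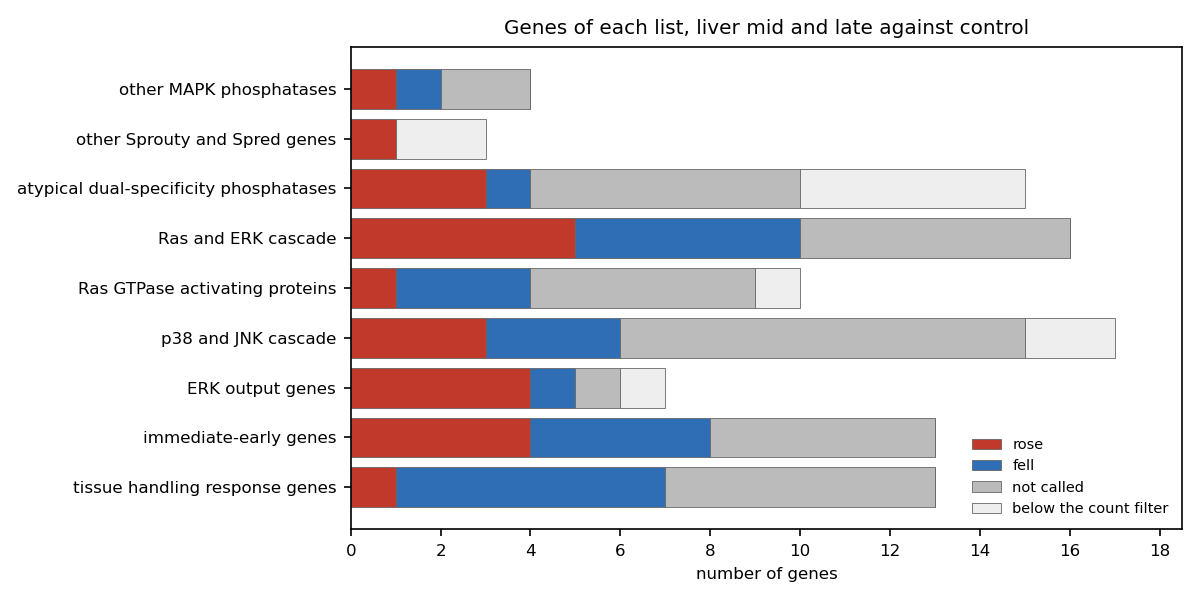
Number of genes of each list that rose, fell, were not called or were below the count filter in liver mid and late against control. ERK output genes mostly rose (4 of 6 tested), genes of the tissue handling response mostly fell or were not called (6 and 6 of 13), and the cascades had calls in both directions.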

How the data were processed

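Low-input RNA sequencing of sorted TCRTg101 gave 26 runs, which were grouped by their labels into 15 libraries (11 of 2 runs, summed). The authors quantified reads with kallisto (bcl2fastq and kallisto are named in the submitters' processing notes, without versions, with builds mm10 and GRCm38). The authors' deposited values per transcript were taken in both units, expected counts (estimated and fractional) and TPM. Transcripts were matched to GENCODE vM21 (98.25% of 118783), summed per gene and rounded. Kallisto divides reads among similar or overlapping transcripts, and whether strand was used is not given in the sources used here, so reads from overlapping antisense genes cannot be separated.

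The filter kept genes reaching 10 counts in 6 or more libraries. Those were tested with edgeR 4.0.16 (R 4.3.3), TMM factors, the robust quasi-likelihood fit, group and series (TG or XC, taken from the titles as the 2 sequencing batches) as terms, and Benjamini-Hochberg adjustment at 0.05. Comparisons without the day 7 and day 14 spleen libraries used 11 libraries, the undivided library among them, and the others 14. DESeq2 1.42.0, RLE factors, no count filter, no series term, all 14 libraries, day 0 controls alone and each library left out were the alternatives. The XC series alone, the day 18 control alone and library totals without scaling factors were added after seeing the data. Levels on the log2 scale, with series removed by limma 3.58.1, served only for likeness between genes. Standard errors are the log2 change over the square root of the F statistic. The chi-square statistic per gene, averaged, was 1.854 to 24.97 between runs of a library and 61.7 to 495.4 between libraries of a group, so no library was counted as a repeat.

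The members and lists were chosen with earlier results of these data known. Named genes are all 10 members, up to 2 of the largest rises and falls among the called genes of each list, the 3 genes closest to each member, and transcripts with at least 10% of a member's counts. Lists of markers for CD8 and CD4 T cells, hepatocytes, liver endothelium, macrophages and monocytes, myeloid precursors, erythroid cells and NK cells were summed per library. Over the 14 low-input libraries the sums were 2.04 to 19.4 for CD4 T cells, 66.4 to 188 for liver endothelium (Cdh5 at most 0.509), 1.18 to 17.1 for myeloid precursors and 0.617 to 9.13 for NK cells, in scaled CPM.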

Additional observations from a re-analysis of the deposited data

How the results depend on the processing

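Of 285 recomputed log2 changes of called members, all 285 kept their direction and 176 stayed past the threshold (day 0 controls alone and leaving out control 3 are 1 fit, counted once). Values that turned were those of members near 0 or not called: for Dusp5 in liver mid and late against control, -0.50 with day 0 controls alone, -0.03 without the count filter, -0.22 with library totals alone and -0.50 to 0.73 with a library left out; for Spred2, 0.06 in the XC series alone, 0.03 with day 0 controls alone and -0.20 to 0.07 with a library left out; for Dusp1 at late, 0.07 with the day 18 control alone. With an early liver library left out, Dusp4 ran from -0.47 to 3.76 against control and Spry1 from -0.37 to 6.10 against spleen.

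Counts of members called fell more readily. They were 0 at mid, at late and jointly in the XC series alone and with the day 18 control alone, and without the series term 4 at mid, 4 at late (Dusp10 and Spred1 lost) and 6 jointly (Dusp1 lost). Dusp4 lost its call at mid with day 0 controls alone (adjusted p = 0.065). With a library left out they ran from 0 to 6 at mid, 0 to 6 at late and 0 to 7 jointly, 0 to 4 at early and 0 to 3 for early liver against spleen. These fits hold fewer libraries, and a lone control or liver library is assumed to vary like the other groups. Over all genes, calls went from 4568 to 1388 at mid, 5482 to 2699 at late and 6913 to 4247 jointly without the series term. In the XC series alone 0 of 13307 genes were called at mid. The XC series, the day 18 control and library totals were alternatives chosen after seeing the data. Without the count filter the counts were 5 at early, 2 for late against mid, 3 for undivided, 6 for late against undivided, 3 for spleen early, 2 for early liver against spleen, 4 for mid liver against day 14 spleen and 1 for the change in the liver to spleen difference. Calls over all genes rose as well, to 1483 of 29525 at early, 434 of 29525 for late against mid and 643 of 32821 for spleen early. With the filter they were 0 in each of these comparisons. The cause was not tested. DESeq2 called 1 member at early (Spry1), 5 for late against undivided and 1 for that change (Spred1).

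Spry2 failed the count filter in the XC series alone. No paired analysis was possible because replicate numbers follow accession order. Depth limits Spry2, with 4 to 24 counts in control and undivided libraries.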
